A study of Saccharomyces cerevisiae with 13 samples.

Results

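The comparison described here is that of Saccharomyces cerevisiae cells after 4 h with the lampricide TFM against cells after 4 h with isopropanol alone, and it covers all 5449 genes that the array annotation names, each by its probe set of highest mean over the series. It rests on 4 of the 13 arrays of the series: 2 of cells given 0.05 mM TFM for 4 h and 2 of cells given 2% isopropanol for 4 h, which the titles call untreated. All cells were BY4741, a MATa haploid laboratory strain that carries deletions in HIS3, LEU2, MET17 and URA3, and all had been grown to saturation at 30 °C in YPGE, a rich medium with glycerol and ethanol as carbon sources. For the TFM arrays the labels name no isopropanol, so a difference in solvent between the arms cannot be told apart from TFM. Nothing in the labels states that replicates came from different cultures, so the p-values may reflect technical spread alone. The other 9 arrays, of time zero and of 1 and 2 h, entered the same model and gave the earlier TFM effects used at the end.

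TFM, 3-trifluoromethyl-4-nitrophenol, is a nitrophenol that carries protons across membranes, and is known as an uncoupler: electrons still flow to oxygen, but less ATP is made. Yeast on glycerol and ethanol depends on respiration, and represses the use of other carbon sources when glucose is sensed. In that sensing pathway Snf3 and Rgt2 are the membrane sensors, Mth1 and Std1 hold the repressor Rgt1 on the hexose transporter genes, and Mig1 and Mig2 repress genes for other carbon sources, opposed by the kinase Snf1. Growth is tied to ribosome production, which takes up much of the transcription of a growing yeast cell and is shut down when nutrients or energy run short.

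The values are log2 RMA values, in which every array was brought to a common distribution. Changes are therefore relative to the rest of each array, and in these bulk cultures fewer cells carrying a transcript cannot be told apart from less of it per cell. The strain markers LEU2, MET17 and URA3 lay between 4.76 and 5.80 on all 4 arrays, under the background level of 5.94 set by the brightest unspiked control probe set. HIS3 was read at 11.65 and 11.51 on the TFM arrays, against 11.44 and 11.61 on the isopropanol arrays, but the deletion in this strain removes only an inner part of the gene, so its probe set may lie outside it and checks nothing. Replicates correlated across genes at r = 0.993 for the TFM arrays and 0.9953 for the isopropanol arrays. Control transcripts had a 3′ minus 5′ signal of 1.63 and 1.40 log2 units on the TFM arrays, against 1.15 and 1.13 on the isopropanol arrays, and the hybridization controls of TFM replicate 1 stood apart at 12.05, against 11.21 on TFM replicate 2 and 11.38 and 11.18 with isopropanol. Among the 4 h arrays the 3′ minus 5′ signal was higher with TFM, while the hybridization controls stood apart on 1 array only. At 1 h the 3′ minus 5′ signal was 1.32 and 1.39 with TFM, against 1.42 and 1.34 with isopropanol. At 2 h it was 1.18 and 1.49 with TFM, against 1.14 with isopropanol. The part of either control measure in the results was not tested beyond refitting with each as a covariate. Where the refit with the 3′ minus 5′ signal or the loss of 1 of the 4 arrays ended the call of a gene whose change is given, this is said beside it.

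After 4 h the TFM arrays differed from the isopropanol arrays in most genes. In limma 3539 of 5449 genes (64.9%) passed an adjusted p of 0.05, of which 1685 (30.9%) were higher with TFM and 1854 (34.0%) lower, and 4347 genes (79.8%) had TFM arrays that did not overlap the isopropanol arrays. In each of the 3539 called genes the TFM arrays both lay on the same side of the isopropanol arrays, so the groups of any gene said below to have risen or fallen did not overlap. List counts of rises and falls below stand beside the 30.9% and 34.0% of all genes. Counts near these shares show nothing particular to a list. The refit with the 3′ minus 5′ covariate called 1155 genes higher and 1293 lower of all 5449. List counts given for that covariate stand beside these lower totals, so a loss of calls with it is not particular to a list. Lists given without such counts need not have kept theirs. Most changes were small: the median gene moved by 0.39 log2 units in either direction, beside a median standard error of 0.0954. At least 2-fold changes were called in 603 genes (11.1%), with 262 higher (4.81%) and 341 lower (6.26%). At least 4-fold changes were called in 29 genes that rose and 11 that fell, and at least 8-fold changes in 9 that rose and 0 that fell. Between the isopropanol arrays of 4 h and those of time zero no gene passed the threshold in limma (0 of 5449 genes, 0.0%, and 67 genes at an unadjusted p under 0.05). The labels give 2% isopropanol for time zero as well, so this compares times and does not measure the effect of isopropanol. The same-numbered arrays of these groups deviated together (r = 0.599 across genes), and with a replicate block, added after the data were seen, the count was also 0, with 55 genes at an unadjusted p under 0.05, or 267 in a fit of the 6 arrays of time zero and of isopropanol at 1 and 4 h alone.

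Changes differed with the level of the gene. The level is the isopropanol mean that is also subtracted to give the change, so level and change are not independent. The highest value on any array was 15.2, and the 353 genes whose isopropanol mean was at least 14 had no rise above 0.60 but falls down to -1.67, with 51 of them called higher and 152 called lower. Of the 1363 genes dimmest with isopropanol 56.6% were called, and of the 1362 brightest 67.3%. Longer genes were more often higher: of the 1815 longest genes 721 rose and 503 fell, and of the 1821 shortest 441 rose and 689 fell. These shares describe the arrays, on which the 3′ minus 5′ signal of the controls also differed between the groups, and what sets them was not tested.

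**Figure D1:**
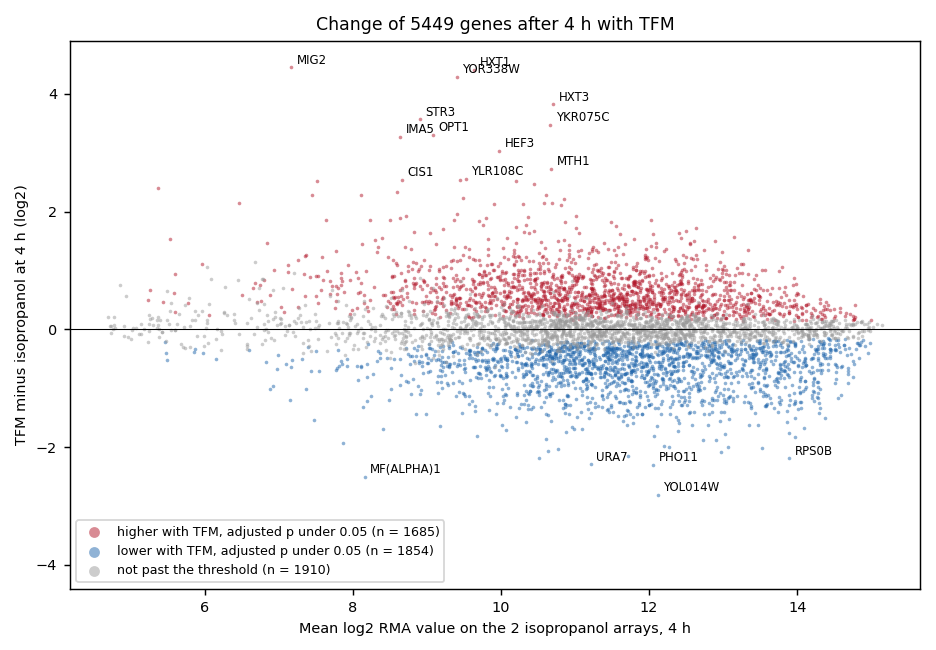
Change of each of 5449 genes at 4 h (TFM minus isopropanol, log2, y axis) by its mean log2 RMA value on the 2 isopropanol arrays (x axis), with genes called higher in red, called lower in blue and the others in grey. The largest rises, led by MIG2 at 4.45 and HXT1 at 4.40, start from low or middle levels, and above a level of 14 no rise exceeds 0.60. Both axes use the same isopropanol arrays and are not independent.

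The largest rises included genes of sugar sensing and uptake, with MIG2 and HXT1 at the top. MIG2, a repressor in glucose repression, had 11.72 and 11.52 on the TFM arrays, against 6.76 and 7.58 on the isopropanol arrays, a change of 4.45 ± 0.30 (adjusted p = 2.41e-06). HXT1, a low-affinity glucose transporter gene, had 14.15 and 13.94 with TFM, against 9.27 and 10.01 with isopropanol, or 4.40 ± 0.31 (adjusted p = 2.98e-06). HXT3, its relative of similar affinity, had 14.39 and 14.67 with TFM, against 10.67 and 10.74 with isopropanol, or 3.82 ± 0.17 (adjusted p = 5.99e-07). For all of these genes both TFM arrays lay far above both isopropanol arrays. MTH1, which encodes the Rgt1 co-repressor, had 13.30 and 13.51 with TFM, against 10.86 and 10.50 with isopropanol, a change of 2.72 ± 0.24 (adjusted p = 9.33e-06). The isomaltase gene IMA5 had 11.74 and 12.08 with TFM, against 8.34 and 8.94 with isopropanol and changed by 3.27.

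The other genes among the 12 largest rises have other known roles or are little studied. STR3, whose product cleaves cystathionine to homocysteine, had 12.35 and 12.60 with TFM, against 8.74 and 9.08 with isopropanol, a change of 3.57 ± 0.18 (adjusted p = 7.55e-07). OPT1, a transporter of oligopeptides and glutathione, changed by 3.30 and CIS1, listed here with the targets of Pdr1 and Pdr3, by 2.54. HEF3, a second copy of translation elongation factor 3, had 12.91 and 13.11 with TFM, against 9.96 and 9.99 with isopropanol, with arrays that lay close together in each group and a change of 3.03 ± 0.11 (adjusted p = 3.29e-07). The little-studied genes YOR338W, YKR075C and YLR108C changed by 4.29, 3.48 and 2.55. YOR338W was read at 13.60 and 13.79 on the TFM arrays, against 9.34 and 9.47 on the isopropanol arrays, so the groups lay far apart.

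The largest falls were spread over several functions. YOL014W, a gene of no known function, had 9.33 and 9.28 on the TFM arrays, against 12.12 and 12.11 on the isopropanol arrays, a change of -2.81 ± 0.08 (adjusted p = 7.37e-08). PHO11, a secreted acid phosphatase gene with a near-identical copy in PHO12, had 9.75 and 9.76 with TFM, against 12.10 and 12.01 with isopropanol and changed by -2.30 ± 0.12 (adjusted p = 8.58e-07). URA7, the main CTP synthase gene, had 8.99 and 8.86 with TFM, against 11.10 and 11.32 with isopropanol, a change of -2.29 ± 0.14 (adjusted p = 1.56e-06). In each case the groups did not overlap. RPS0B, a protein of the small ribosomal subunit, changed by -2.19, and RRP3, an RNA helicase of ribosomal RNA processing, by -2.07. RLI1, an iron-sulfur protein that splits ribosomes after termination, changed by -1.99, ARO4, the first enzyme of aromatic amino acid synthesis, by -2.01, UTR2, a cell wall crosslinking enzyme, by -2.19, and TIR1, a cell wall mannoprotein, by -2.14. YER053C-A and YER187W, both of unknown function, changed by -2.09 and -2.03. MF(ALPHA)1, the alpha-factor gene, had 5.44 and 5.88 with TFM, against 8.05 and 8.27 with isopropanol, and since its TFM arrays lay under the background level it was at least 4.67-fold lower.

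**Figure D2:**
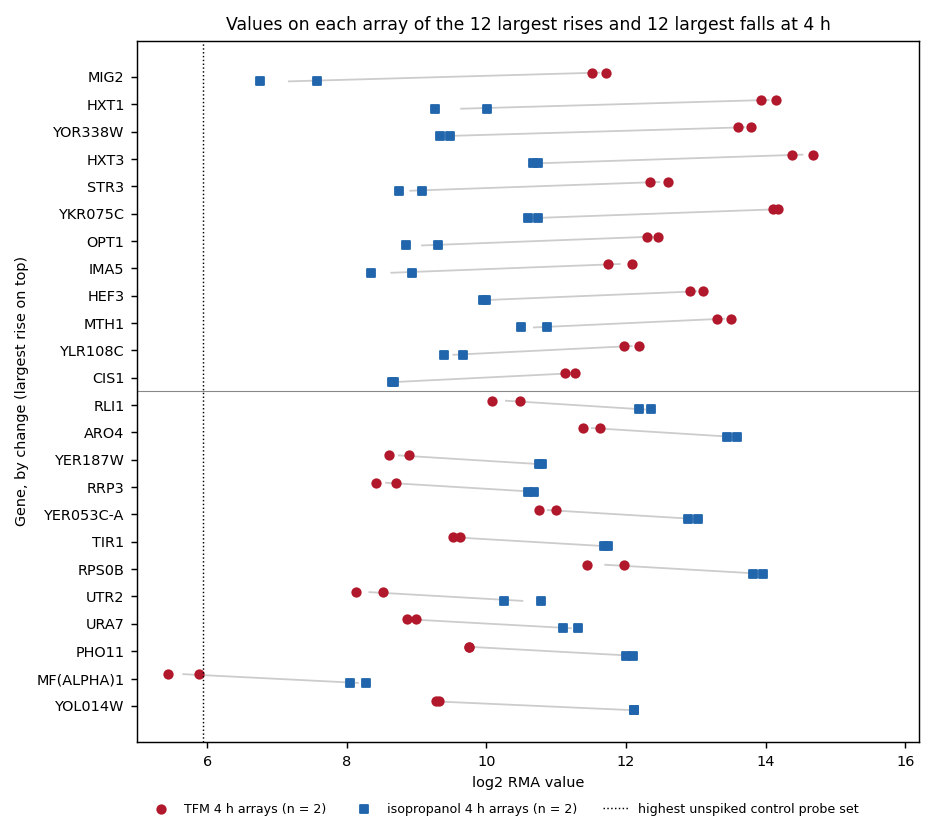
The log2 RMA value (x axis) on each 4 h array of the 12 largest rises and 12 largest falls (y axis), with TFM arrays as red circles above the isopropanol arrays as blue squares, and lines between the group means. In every gene shown the groups lie apart, and the dotted line marks the background level of 5.94, above which MF(ALPHA)1 lies only on the isopropanol arrays.

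All measured genes of the glucose sensing list passed the threshold, beside 64.9% of all genes. Of its 19 measured genes 15 rose and 4 fell, with a median of 0.63, beside -0.01 over all genes. STD1, the other Rgt1 co-repressor, changed by 1.89 ± 0.09 (adjusted p = 6.5e-07), MIG1 by 1.62, MIG3 by 1.23, RGT1 by 0.67, and the sensors SNF3 and RGT2 by 1.23 and 1.08. The genes that fell belong to the kinase itself and to sugar phosphorylation: SNF1 (-0.25, a call lost without TFM replicate 2 or isopropanol replicate 2, with adjusted p = 0.0814 and 0.066), its subunits SNF4 (-0.71 ± 0.08 (adjusted p = 5.66e-05)) and GAL83 (-0.53), and the hexokinase HXK2. HXK2 had 13.12 and 12.86 with TFM, against 13.82 and 13.82 with isopropanol, a change of -0.83 ± 0.09 (adjusted p = 2.73e-05) with no overlap of the groups. Regulators of both glucose repression and of growth without glucose, such as SIP4 (1.24) and CAT8 (0.49, not called with the 3′ minus 5′ covariate), were among the genes that rose.

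The hexose transporters did not move as a family. Of 15 measured genes 7 rose and 3 fell. HXT8 changed by 2.14, while HXT9 and HXT10 changed by -0.91 and -0.51. The median of the list, 0.42, was 0.15 without TFM replicate 1 and -0.19 with the 3′ minus 5′ covariate, with which 6 members fell, so no direction is given for it. Among the 10 genes of maltose and isomaltose use 5 rose and 2 fell (6 and 1 with the covariate). IMA3 changed by 1.35 and the permease gene MPH2 by 0.73, while IMA1 had 6.94 and 7.26 with TFM, against 8.33 and 8.15 with isopropanol, a change of -1.14 ± 0.14 (adjusted p = 7.08e-05). Members of the HXT and IMA families are close in sequence, and cross-hybridization between them was not tested.

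In the pentose phosphate and storage carbohydrate lists more genes fell than rose. The pentose phosphate pathway, which supplies NADPH and ribose, had 8 of 14 genes that fell and 1 that rose (median -0.42). GND1, a 6-phosphogluconate dehydrogenase gene, had 11.46 and 11.47 with TFM, against 12.65 and 12.75 with isopropanol, a change of -1.24 ± 0.07 (adjusted p = 9.29e-07), and RKI1 and TKL1 changed by -1.17 and -1.11. The gene that rose was ZWF1, the first enzyme of the pathway, at 0.26 ± 0.07 (adjusted p = 0.00886), a call lost without isopropanol replicate 1 (adjusted p = 0.0552). In trehalose and glycogen metabolism 10 of 20 genes fell and 3 rose, with 7 and 2 under the 3′ minus 5′ covariate. PGM1, a phosphoglucomutase, changed by -1.42 ± 0.11 (adjusted p = 3.61e-06) and GPH1, glycogen phosphorylase, by -0.88, while ATH1 and NTH2, which break trehalose down, changed by 0.92 and 0.75.

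Glycolysis had 8 genes that fell and 4 that rose of 20, with 4 and 2 under the 3′ minus 5′ covariate and 2 rises without TFM replicate 2 or isopropanol replicate 2. PFK27, which makes the activator of glycolysis fructose 2,6-bisphosphate, had 9.37 and 9.77 with TFM, against 8.07 and 8.19 with isopropanol, a change of 1.44 ± 0.19 (adjusted p = 0.000104). PFK1, a subunit of phosphofructokinase, changed by -0.83 ± 0.07 (adjusted p = 6.62e-06). In the list of gluconeogenesis and the glyoxylate cycle 10 of 16 genes rose and 1 fell (2 without TFM replicate 2), and the largest rises were not in the pathway enzymes. They were VID24 (1.83 ± 0.16 (adjusted p = 8.12e-06)) and GID8 (1.00 ± 0.06 (adjusted p = 1.06e-06)), subunits of the ubiquitin ligase known to mark gluconeogenic enzymes for degradation, and ICL2 (1.02 ± 0.06 (adjusted p = 1.81e-06)), a mitochondrial lyase of propionate metabolism. Of 4 measured genes of that ligase, grouped after the values were seen, 2 rose and 2 were not called, the lowest at -0.11. The 10 enzymes and carriers of the pathways lay between -0.44 and 0.49. In glycerol metabolism 2 of 11 genes were called higher and 1 lower, but with the 3′ minus 5′ covariate 0 were higher and 3 lower, and without TFM replicate 1 the counts were 1 and 2, so no direction is given. There were 2 higher and 0 lower without TFM replicate 2, 1 and 1 without isopropanol replicate 1, and 1 and 0 without isopropanol replicate 2.

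Peroxisome genes rose together. In the list of beta-oxidation and peroxisomes 29 of 37 genes rose and 2 fell (median 0.70), beside 30.9% and 34.0% of all genes. POT1, the thiolase of the last step of beta-oxidation, had 14.26 and 14.08 with TFM, against 12.47 and 12.53 with isopropanol, a change of 1.67 ± 0.09 (adjusted p = 8.94e-07). PEX18 had 11.93 and 12.04 with TFM, against 9.32 and 9.57 with isopropanol and PEX21 had 12.50 and 12.33 with TFM, against 10.22 and 10.37 with isopropanol, changes of 2.54 ± 0.12 (adjusted p = 6.65e-07) and 2.12 ± 0.13 (adjusted p = 1.61e-06). These genes encode co-receptors that carry proteins such as Pot1 into the peroxisome. The peroxisomal catalase gene CTA1 changed by 1.05. Of 12 genes of the enzymes and fatty acid carriers 10 rose and 0 fell, and of 17 PEX genes 15 rose and 1 fell, PEX8 at -0.32 ± 0.06 (adjusted p = 0.00109). Acetyl groups leave peroxisomes through the carnitine shuttle, whose genes YAT2 and CRC1 changed by 1.46 ± 0.12 (adjusted p = 7.08e-06) and 1.55 ± 0.11 (adjusted p = 2.81e-06). ANT1, the peroxisomal ATP carrier, changed by -0.48.

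Medians of the respiratory machinery lay near 0, in lists of bright genes. Median levels on the isopropanol arrays were 14.09 and 14.01 for the respiratory chain and 14.41 and 14.32 for the tricarboxylic acid cycle. Among all genes with an isopropanol mean of at least 14 no rise exceeded 0.60. Whether rises are compressed at these levels was not tested. The respiratory chain had a median of -0.01 with 4 rises and 7 falls among 25 genes, and the tricarboxylic acid cycle one of 0.02 with 5 rises and 2 falls among 23. With the 3′ minus 5′ covariate 2 genes rose and 1 fell in the chain and 3 rose in the cycle. Without isopropanol replicate 2 there were 2 rises and 4 falls in the chain and 3 rises in the cycle, which had 2 rises without TFM replicate 1. In the ATP synthase list 9 of 20 genes fell and 0 rose, but 4 fell without isopropanol replicate 1, 5 without TFM replicate 1 and 1 with the covariate. Single genes lay further from 0. ATP12, which assembles the F1 part of ATP synthase, had 10.45 and 10.35 with TFM, against 11.71 and 11.95 with isopropanol, a change of -1.43 ± 0.09 (adjusted p = 1.39e-06). CYC1, the main cytochrome c gene, changed by -1.21 ± 0.12 (adjusted p = 2.09e-05), the external NADH dehydrogenase gene NDE2 by 0.90 ± 0.14 (adjusted p = 0.000338), and CIT3, a minor mitochondrial citrate synthase, by 1.57 ± 0.08 (adjusted p = 8.84e-07).

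Mitochondrial carriers moved both ways, with 8 rises and 5 falls among 27, and 2 falls without isopropanol replicate 2 or 3 without TFM replicate 2. AAC1, a minor ADP/ATP carrier, had 14.11 and 14.07 with TFM, against 13.16 and 13.16 with isopropanol, a change of 0.93 ± 0.07 (adjusted p = 2.82e-06), while PET9, the main one, had 14.92 and 14.97 with TFM, against 14.94 and 14.96 with isopropanol and an overlap of the groups. GGC1, the carrier of GTP and GDP, changed by -0.73. In the protein import list 11 of 27 genes fell and 1 rose, with 3 rises without TFM replicate 2 or with the 3′ minus 5′ covariate and 2 without either isopropanol array. The receptor gene TOM20 changed by -1.21 ± 0.14 (adjusted p = 4.34e-05) and the inner membrane translocase gene TIM22 by 0.99 ± 0.08 (adjusted p = 5.23e-06). The retrograde response, by which impaired mitochondria alter nuclear transcription, had 10 of 16 genes that rose and 1 that fell (6 and 0 with the 3′ minus 5′ covariate), among them its activator RTG3 (0.82 ± 0.09 (adjusted p = 3.9e-05)) and the target DLD3 (1.25 ± 0.10 (adjusted p = 6.08e-06)).

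Of 23 genes of proton pumps and their regulators 13 fell and 5 rose, with 2 or 3 rises without TFM replicate 2 or either isopropanol array, and 7 falls and 3 rises with the 3′ minus 5′ covariate. Among 15 subunits of the vacuolar ATPase, grouped after the values were seen, 11 fell and 1 rose (median -0.51), 7 fell with the covariate, and none rose without TFM replicate 2 or either isopropanol array. VMA7 had 11.87 and 12.23 with TFM, against 13.04 and 13.09 with isopropanol, a change of -1.02 ± 0.12 (adjusted p = 4.76e-05), and VMA5 changed by -0.70 ± 0.11 (adjusted p = 0.000343). PMA1, the plasma membrane proton pump, had 13.96 and 14.04 with TFM, against 14.27 and 14.29 with isopropanol, a change of -0.28 ± 0.06 (adjusted p = 0.00356) that lost its call with that covariate (adjusted p = 0.106), and its little-used relative PMA2 changed by 0.76 ± 0.13 (adjusted p = 0.000544).

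Cytosolic ribosomal protein genes fell almost without exception. Of 128 genes 123 fell and 0 rose, with a median of -0.83, and the 5 others, RPS20, RPL30, RPS23A, RPS27A and RPL22B, lay between -0.15 and 0.09. RPS0B had 11.44 and 11.97 on the TFM arrays, against 13.81 and 13.97 on the isopropanol arrays, a change of -2.19 ± 0.19 (adjusted p = 9.06e-06). RPL13A had 10.94 and 11.21 with TFM, against 13.08 and 13.06 with isopropanol and RPL6B had 10.86 and 11.18 with TFM, against 12.81 and 12.98 with isopropanol, changes of -1.99 ± 0.12 (adjusted p = 1.17e-06) and -1.88 ± 0.13 (adjusted p = 2.32e-06). In all of these the groups lay apart by more than 1 log2 unit. Copies of one ribosomal protein are often near-identical, and cross-hybridization between them was not tested.

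The rest of the cytosolic translation machinery fell with them. Of 19 cytosolic aminoacyl-tRNA synthetase genes 18 fell and 0 rose (median -0.72), DPS1 being the other at -0.09 ± 0.06 (adjusted p = 0.224). With the 3′ minus 5′ covariate 14 fell. ILS1, the isoleucyl-tRNA synthetase gene, had 12.11 and 12.10 with TFM, against 13.36 and 13.36 with isopropanol, a change of -1.26 ± 0.08 (adjusted p = 1.61e-06), and FRS1 and YDR341C, for phenylalanine and arginine, changed by -1.27 and -1.39. Among 37 translation factors 27 fell and 2 rose (median -0.57), with 20 and 3 under the same covariate. The initiation factor genes TIF3, PRT1 and TIF4631 changed by -1.28, -1.26 and -1.23. The factors that rose were HEF3 and SUI1, an initiation factor of start codon choice, SUI1 at 0.54 ± 0.11 (adjusted p = 0.00147). Mitochondrial ribosomal proteins changed less, with 31 falls and 9 rises among 71 (median -0.12), and 18 and 4 with the 3′ minus 5′ covariate.

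Ribosome biogenesis split. Of 106 genes 57 fell and 20 rose (median -0.38), with 39 and 15 and a median of -0.19 under the 3′ minus 5′ covariate. KRR1, needed to assemble the small subunit, had 9.17 and 9.41 with TFM, against 11.06 and 10.91 with isopropanol, a change of -1.70 ± 0.14 (adjusted p = 5.44e-06), and NOP7, of the large subunit, had 9.87 and 10.27 with TFM, against 11.80 and 11.59 with isopropanol, a change of -1.63 ± 0.13 (adjusted p = 5.43e-06). RCL1 had 10.81 and 10.85 with TFM, against 9.64 and 9.65 with isopropanol and UTP18 had 9.78 and 9.59 with TFM, against 8.46 and 8.73 with isopropanol, changes of 1.18 ± 0.10 (adjusted p = 6.4e-06) and 1.09 ± 0.10 (adjusted p = 1.2e-05), although both act in the same small subunit assembly as KRR1. Grouped after the values were seen, 15 of 36 small subunit processome genes fell and 11 rose, against 28 falls and 8 rises among 47 large subunit assembly factors (17 and 5 with the covariate). Of 7 subunits of RNA polymerase I, which transcribes ribosomal DNA, 4 fell and 2 rose (1 rise without TFM replicate 1 or isopropanol replicate 2 or with the covariate), and the falls included RPA43 at -1.31 ± 0.11 (adjusted p = 7.94e-06) and RPA135 at -1.21 ± 0.14 (adjusted p = 4.32e-05). RRN3, its initiation factor, had 11.04 and 10.79 with TFM, against 9.44 and 9.57 with isopropanol, a change of 1.40 ± 0.12 (adjusted p = 7.42e-06), and of 10 subunits of RNA polymerase III 3 rose and 3 fell, the rises including RPC37 and RPC82 at 1.29 and 1.18. Both subunit groups were made after the values were seen.

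**Figure D3:**
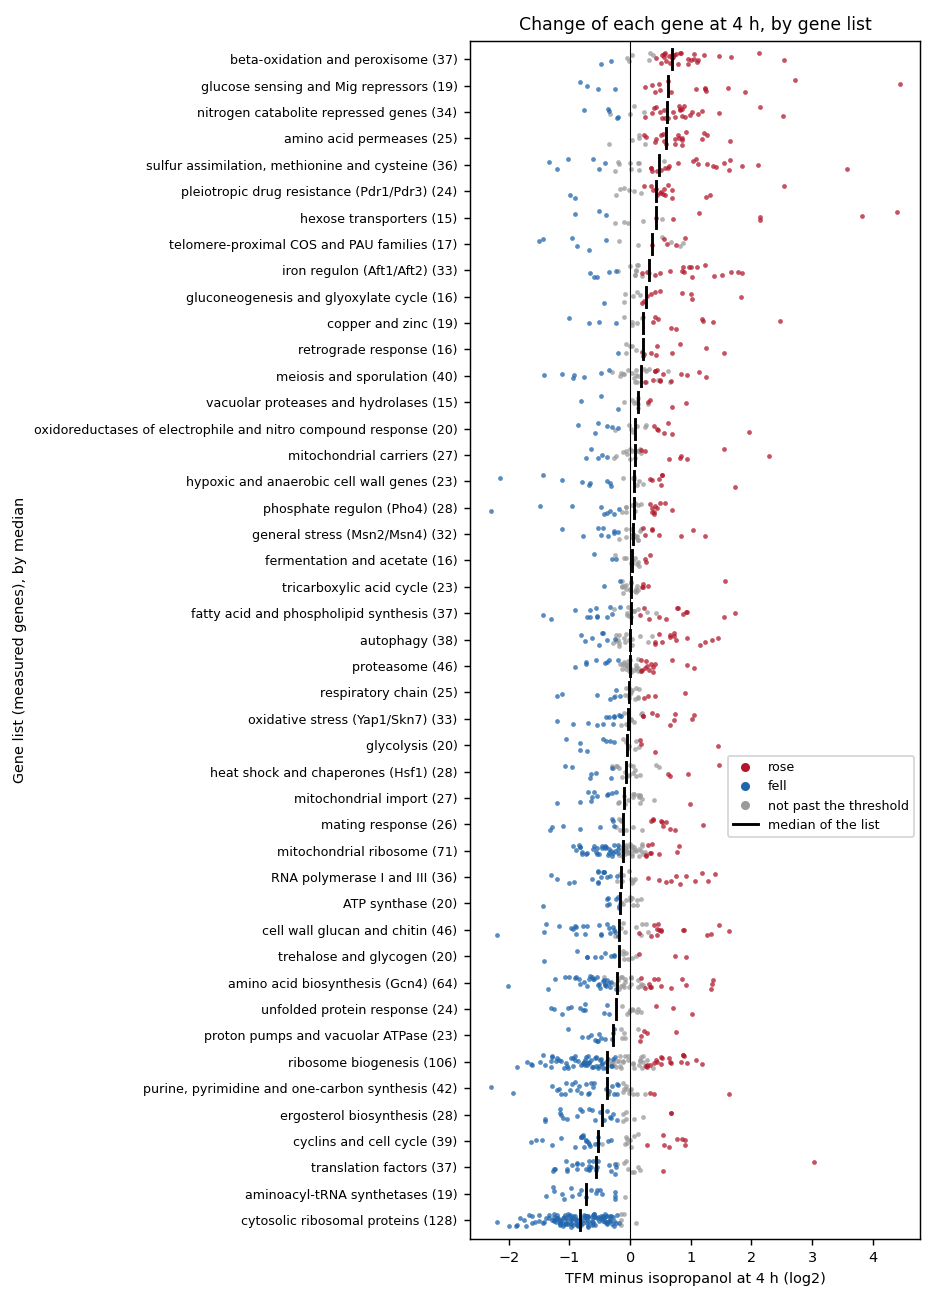
Change of each gene at 4 h (TFM minus isopropanol, log2, x axis) in every list of at least 15 measured genes (y axis, sorted by median), with genes that rose in red, genes that fell in blue, genes not past the threshold in grey and the list median as a black line. Cytosolic ribosomal proteins lie lowest with a median of -0.83, and beta-oxidation and peroxisome genes highest with 0.70.

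Nitrogen uptake genes rose while many synthesis genes fell. Among 25 amino acid permeases and their sensing genes 20 rose and 0 fell (median 0.60, with 1 fall without TFM replicate 2 or with the 3′ minus 5′ covariate). The methionine permease genes MUP1 and MUP3 had 13.85 and 13.94 with TFM, against 12.57 and 12.69 with isopropanol, and 11.98 and 12.05 with TFM, against 10.23 and 10.53 with isopropanol, changes of 1.26 ± 0.09 (adjusted p = 2.8e-06) and 1.64 ± 0.10 (adjusted p = 1.27e-06). STP2, which activates permease genes when amino acids are sensed, changed by 1.22 ± 0.08 (adjusted p = 2.63e-06). Of 34 genes repressed on good nitrogen sources 25 rose and 5 fell (median 0.60), with 1 fall without isopropanol replicate 2 or with the 3′ minus 5′ covariate and 3 falls without TFM replicate 2. MEP2, an ammonium permease, had 12.72 and 12.71 with TFM, against 9.97 and 10.43 with isopropanol, a change of 2.51 ± 0.23 (adjusted p = 1.2e-05). DUR3, a urea transporter, had 12.72 and 12.95 with TFM, against 10.67 and 10.71 with isopropanol, a change of 2.15 ± 0.15 (adjusted p = 2.38e-06), and the activators GAT1 and GLN3 changed by 1.47 and 1.19. For MEP2 and DUR3 the groups lay apart by at least 1 log2 unit.

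In amino acid biosynthesis 30 of 64 genes fell and 14 rose (median -0.22), with 20 and 10 under the 3′ minus 5′ covariate. ARO4 had 11.39 and 11.63 with TFM, against 13.45 and 13.60 with isopropanol, a change of -2.01 ± 0.13 (adjusted p = 1.76e-06), and HOM2 and ILV3, of the threonine and branched-chain pathways, changed by -1.36 and -1.23. The genes ARG3 and CPA1, of arginine synthesis, rose at 1.37 ± 0.17 (adjusted p = 8.81e-05) and 1.34 ± 0.07 (adjusted p = 8.53e-07). Sulfur genes went the other way, with 21 rises and 6 falls among 36 (median 0.48). MET2, which makes O-acetylhomoserine, had 13.03 and 12.82 with TFM, against 10.82 and 10.81 with isopropanol, a change of 2.11 ± 0.10 (adjusted p = 6.58e-07), and MET30, whose product restrains the activator of the pathway, changed by 1.85 ± 0.12 (adjusted p = 1.74e-06). The falls were led by enzymes around S-adenosylmethionine: SAM1 and SAM2, which make it from methionine, changed by -1.20 and -1.02, and SAH1, which clears its methylation product, by -1.34 ± 0.10 (adjusted p = 4.88e-06). MET17, of this pathway, is deleted in the strain.

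Nucleotide synthesis fell in 28 of 42 genes and rose in 3 (median -0.38), with 1 rise without TFM replicate 1. With the 3′ minus 5′ covariate 22 nucleotide synthesis genes fell and 2 rose. Besides URA7, the IMP dehydrogenase gene IMD2 had 6.01 and 5.88 with TFM, against 7.87 and 7.87 with isopropanol, a change of -1.93 ± 0.12 (adjusted p = 1.89e-06) in which TFM replicate 2 lay under the background level, and FUR1, of uracil salvage, changed by -1.28 ± 0.14 (adjusted p = 3.36e-05). FUI1, a uridine permease, had 13.16 and 13.30 with TFM, against 11.56 and 11.64 with isopropanol, a change of 1.63 ± 0.08 (adjusted p = 6.65e-07), the largest of the genes that rose. Of 28 genes of the phosphate regulon 10 rose (35.7%) and 9 fell (32.1%), near the 30.9% and 34.0% of all genes. The regulon had 6 rises and 5 falls with the 3′ minus 5′ covariate, and fewer falls without isopropanol replicate 2. Its falls included the acid phosphatases PHO3 (-1.48 ± 0.12 (adjusted p = 5.93e-06)) and PHO5 (-0.95 ± 0.13 (adjusted p = 0.000183)) beside PHO11, and the vacuolar phosphatase PHO8 changed by 0.69 ± 0.08 (adjusted p = 3.43e-05).

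Sterol synthesis fell. In the ergosterol list 20 of 28 genes fell and 2 rose (median -0.46), and 13 fell with the 3′ minus 5′ covariate. ERG13, the HMG-CoA synthase gene, had 11.04 and 11.25 with TFM, against 12.51 and 12.59 with isopropanol, a change of -1.41 ± 0.14 (adjusted p = 2.17e-05), and ERG2 and ERG6, of the late steps, changed by -1.40 and -1.15. The genes that rose were ECM22, a sterol-responsive activator (0.67 ± 0.07 (adjusted p = 3.54e-05)), and IDI1, an isomerase of the isoprenoid steps (0.67 ± 0.09 (adjusted p = 0.000109)). Among 37 genes of fatty acids and phospholipids 12 rose (32.4%) and 13 fell (35.1%), near the 30.9% and 34.0% of all genes. With the covariate 8 fell. OLE1, the fatty acid desaturase gene, had 14.31 and 14.40 with TFM, against 12.64 and 12.62 with isopropanol, a change of 1.72 ± 0.09 (adjusted p = 9.36e-07). INO2, an activator of phospholipid genes, changed by 1.55 ± 0.13 (adjusted p = 7.94e-06), while its target INO1, the inositol synthesis gene, had 12.17 and 12.37 with TFM, against 13.62 and 13.52 with isopropanol, a change of -1.30 ± 0.12 (adjusted p = 1.43e-05).

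Cell wall genes moved both ways. The list had 22 falls and 15 rises among 46, with 12 falls and a median of 0.05, in place of -0.18, under the 3′ minus 5′ covariate. DSE4, a glucanase gene of daughter cell separation, had 12.57 and 12.79 with TFM, against 10.94 and 11.16 with isopropanol, a change of 1.63 ± 0.10 (adjusted p = 1.67e-06), and DSE3 and DSE1 changed by 1.46 and 1.34. All 8 daughter separation genes, grouped after these values were seen (DSE1 to DSE4, CTS1, EGT2, SCW11 and SUN4), were called higher, from 0.47 to 1.63. UTR2 had 8.52 and 8.13 with TFM, against 10.25 and 10.78 with isopropanol, a change of -2.19 ± 0.20 (adjusted p = 1.06e-05). CHS2, which lays down the septum before separation, changed by -1.38 ± 0.14 (adjusted p = 1.84e-05), and the wall protein PIR3 by -1.42. Hypoxic genes had 7 rises and 9 falls among 23: the mannoprotein gene TIR1 had 9.51 and 9.62 with TFM, against 11.68 and 11.74 with isopropanol, a change of -2.14 ± 0.10 (adjusted p = 5.99e-07), HEM13, of heme synthesis, changed by -1.43 ± 0.13 (adjusted p = 1.16e-05), and the repressor ROX1 by 0.52 ± 0.11 (adjusted p = 0.0023).

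Iron genes rose more often than they fell. In the iron regulon 18 of 33 genes rose and 5 fell (median 0.32, with 3 falls under the 3′ minus 5′ covariate). AFT2, one of its activators, had 11.62 and 11.46 with TFM, against 9.63 and 9.78 with isopropanol, a change of 1.84 ± 0.09 (adjusted p = 6.58e-07). FRE4, a siderophore reductase, and HMX1, heme oxygenase, changed by 1.78 ± 0.19 (adjusted p = 2.89e-05) and 1.66 ± 0.11 (adjusted p = 1.92e-06), while the siderophore transporters ENB1 and ARN2 changed by -0.66 and -0.55. IZH1, a zinc-responsive membrane protein gene, had 12.76 and 13.07 with TFM, against 10.26 and 10.64 with isopropanol, a change of 2.47 ± 0.14 (adjusted p = 9.95e-07), and its regulator ZAP1 changed by 1.20 ± 0.09 (adjusted p = 3.69e-06). CTR1, the high-affinity copper transporter gene, had 11.51 and 11.46 with TFM, against 12.37 and 12.61 with isopropanol, with the TFM arrays the lower (adjusted p = 1.47e-05).

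Transporters of small carbon compounds rose modestly from high levels. In a list of acetate, lactate, glycerol and inositol carriers 6 of 9 genes rose and 0 fell, and 3 rose with the 3′ minus 5′ covariate. ADY2, an acetate transporter, had 14.77 and 14.74 with TFM, against 13.93 and 14.04 with isopropanol, a change of 0.77 ± 0.08 (adjusted p = 2.35e-05), and JEN1, which carries lactate and pyruvate, changed by 0.30 ± 0.06 (adjusted p = 0.00199), a call lost with that covariate (adjusted p = 0.0563). The list of telomere-proximal COS and PAU genes had 5 rises, all in PAU genes, and 6 falls, all in COS genes, among 17. COS8, a member of a family of membrane proteins, had 10.31 and 10.62 with TFM, against 11.90 and 11.91 with isopropanol, a change of -1.44 ± 0.10 (adjusted p = 2.55e-06), and PAU3, a seripauperin mannoprotein gene, had 9.74 and 9.14 with TFM, against 8.49 and 8.58 with isopropanol, a change of 0.91 ± 0.18 (adjusted p = 0.00134) that was 0.34 with the covariate, without a call (adjusted p = 0.17). The number of rises was 9 without TFM replicate 2, and 3 without TFM replicate 1 or isopropanol replicate 2, and falls numbered 4 without isopropanol replicate 2. With the covariate 1 PAU gene rose, 2 PAU genes fell and 4 COS genes fell, so no direction is given for the PAU family. Members of each family are close in sequence, and cross-hybridization was not tested.

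Drug resistance genes rose in 16 of 24 and fell in 2 (median 0.43). CIS1 had 11.13 and 11.27 with TFM, against 8.64 and 8.67 with isopropanol, a change of 2.54 ± 0.08 (adjusted p = 1.21e-07). The efflux pump genes PDR10, ATR1, SNQ2 and PDR5 changed by 1.32 ± 0.10 (adjusted p = 3.37e-06), 1.26 ± 0.15 (adjusted p = 5.18e-05), 0.56 and 0.42, and the regulator genes PDR1 and PDR3 by 0.54 and 0.69. HXT9, also a target of these regulators, and RTA1 were the genes that fell, the second at -0.99 ± 0.17 (adjusted p = 0.000659). Of the oxidoreductases of electrophile and nitro compound response, a class that includes nitroreductase relatives, 7 of 20 rose and 6 fell (2 falls without isopropanol replicate 2 or with the 3′ minus 5′ covariate). ARI1, an aldehyde reductase, had 11.46 and 11.24 with TFM, against 9.11 and 9.69 with isopropanol, a change of 1.95 ± 0.24 (adjusted p = 6.78e-05), and FRM2, a relative of bacterial nitroreductases, changed by -0.58 ± 0.14 (adjusted p = 0.00409).

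Stress genes did not move as blocks. The general stress list had 8 rises and 9 falls among 32 genes, the oxidative stress list 9 and 12 among 33, and the heat shock list 4 and 7 among 28, with medians of 0.05, -0.03 and -0.07. With the 3′ minus 5′ covariate the general stress counts were 5 and 5 and 5 oxidative stress genes fell, while 8 heat shock genes rose and 4 fell without isopropanol replicate 1, and 11 fell without replicate 2. The regulators HSF1, SKN7 and MSN4 all rose, at 0.96 ± 0.11 (adjusted p = 4.03e-05), 1.02 ± 0.09 (adjusted p = 1.16e-05) and 0.84 ± 0.19 (adjusted p = 0.00296). TSA2, a peroxiredoxin, had 10.45 and 10.58 with TFM, against 11.77 and 11.68 with isopropanol, a change of -1.21 ± 0.15 (adjusted p = 7.92e-05), and the thioredoxin gene TRX1 changed by -0.95 ± 0.06 (adjusted p = 2.35e-06). SSB2, an Hsp70 that sits on translating ribosomes, changed by -1.07 ± 0.08 (adjusted p = 4.72e-06), and APJ1, a co-chaperone, by 1.46 ± 0.24 (adjusted p = 0.000451).

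Protein breakdown and folding genes were also mixed. In the proteasome list 14 of 46 genes rose (30.4%) and 8 fell (17.4%), beside 30.9% and 34.0% of all genes. With the 3′ minus 5′ covariate 7 rose and 5 fell, and fewer rose when either TFM array or isopropanol replicate 2 was left out. RPN4, the activator of proteasome genes, had 14.25 and 14.29 with TFM, against 13.43 and 13.23 with isopropanol, a change of 0.94 ± 0.08 (adjusted p = 6.78e-06), while its 33 subunit genes, grouped after the values were seen, lay between -0.39 and 0.40. Of 24 unfolded protein response genes 12 fell (50.0%) and 3 rose (12.5%), beside 34.0% and 30.9% of all genes. The chaperone gene LHS1 changed by -1.26 ± 0.10 (adjusted p = 5.63e-06), and ERO1, which forms disulfide bonds, by 1.03 ± 0.10 (adjusted p = 1.77e-05). Autophagy genes rose in 14 and fell in 8 of 38, beside 30.9% and 34.0% of all genes. ATG11, the scaffold of selective autophagy, had 13.13 and 13.09 with TFM, against 11.63 and 11.71 with isopropanol, a change of 1.44 ± 0.08 (adjusted p = 9.29e-07). Receptors for peroxisomes (ATG36, 1.35 ± 0.08 (adjusted p = 1.25e-06)), mitochondria (ATG32, 0.66) and the endoplasmic reticulum (ATG39 and ATG40, 0.94 and 1.15) were called higher, while APE1, the vacuolar peptidase delivered by selective autophagy, changed by -0.82 ± 0.08 (adjusted p = 1.75e-05) and its receptor ATG19 by -0.51. ATG19, ATG32, ATG39 and ATG40 were picked after their values were seen.

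Cell cycle genes fell in 22 of 39 and rose in 8 (median -0.53). The mitotic cyclin gene CLB2 had 7.65 and 7.43 with TFM, against 8.95 and 9.41 with isopropanol, a change of -1.64 ± 0.17 (adjusted p = 2.35e-05), and SWI5, a transcription factor of the end of mitosis, changed by -1.45 ± 0.07 (adjusted p = 6.58e-07). MCM5 of the replicative helicase had 8.99 and 9.26 with TFM, against 10.64 and 10.71 with isopropanol, a change of -1.55 ± 0.10 (adjusted p = 2.22e-06), and 5 of the 6 MCM helicase genes fell, a group made after the values were seen. CLN1, a G1 cyclin, went against the list at 0.86 ± 0.06 (adjusted p = 3.85e-06), as did the cyclins PCL5 and PCL9 at 0.91 and 0.91. Among 10 histone genes 2 fell and 1 rose (1 fall without TFM replicate 1, without isopropanol replicate 1 or with the 3′ minus 5′ covariate): the linker histone gene HHO1 had 12.01 and 11.90 with TFM, against 13.03 and 13.14 with isopropanol, a change of -1.13 ± 0.09 (adjusted p = 4.8e-06), while 7 core and variant histone genes were not called and lay between -0.12 and 0.05.

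Genes of mating type a all fell. The 7 a-specific genes had changes from -0.73 to -1.63. MFA1, a gene of the a-factor pheromone, had 13.02 and 13.16 with TFM, against 14.18 and 14.21 with isopropanol, a change of -1.11 ± 0.07 (adjusted p = 1.44e-06). STE2, the alpha-factor receptor, had 12.23 and 12.27 with TFM, against 13.02 and 13.10 with isopropanol, a change of -0.81 ± 0.09 (adjusted p = 3.36e-05), and BAR1, the protease that destroys alpha-factor, changed by -1.22 ± 0.11 (adjusted p = 8.48e-06). Of the 4 alpha-specific genes, which a MATa cell normally keeps silent, MF(ALPHA)1 fell, STE3 and MF(ALPHA)2 were not called, and SAG1 was read well above the background level at 12.50 and 12.62 with TFM, against 11.53 and 11.67 with isopropanol, a change of 0.96 ± 0.07 (adjusted p = 4.49e-06). What the SAG1 probe set hybridized with was not tested. FAR1, which arrests the cycle on pheromone, changed by -1.28 ± 0.12 (adjusted p = 1.28e-05), and STE7, a kinase of the pheromone cascade, by 1.20 ± 0.07 (adjusted p = 1.17e-06). In the mating response list 10 of 26 rose (38.5%) and 8 fell (30.8%), with 5 rises under the 3′ minus 5′ covariate. Among 40 meiosis genes 13 rose (32.5%) and 7 fell (17.5%), with 7 rises under the covariate. Of all genes 30.9% rose and 34.0% fell, and no direction is given for either list. IME1, the master regulator of entry into meiosis, changed by -0.95 ± 0.13 (adjusted p = 0.000171).

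Of 77 measured paralog pairs with related roles 10 had 1 gene that rose and 1 that fell, 10 had both rise, 19 both fall, 29 had 1 gene called and 9 none, beside 30.9% of all genes that rose and 34.0% that fell, and nothing particular to duplicated genes is read from these counts. HEF3 rose, as given above, while the main elongation factor 3 gene YEF3 had 13.86 and 13.96 with TFM, against 14.53 and 14.51 with isopropanol, a change of -0.61 ± 0.07 (adjusted p = 4.08e-05). GDH3, a glutamate dehydrogenase of cells on non-fermentable carbon, had 14.69 and 14.67 with TFM, against 13.21 and 13.45 with isopropanol, a change of 1.35 ± 0.08 (adjusted p = 1.56e-06), against -0.31 ± 0.06 (adjusted p = 0.000949) for GDH1. BAT2, the cytosolic branched-chain aminotransferase, had 14.30 and 14.34 with TFM, against 13.91 and 13.94 with isopropanol, a change of 0.40 ± 0.07 (adjusted p = 0.000498), against -1.01 ± 0.10 (adjusted p = 1.45e-05) for the mitochondrial BAT1. ACS1 and ACS2, both acetyl-CoA synthetases, changed by 0.33 ± 0.07 (adjusted p = 0.0021) and -0.59 ± 0.09 (adjusted p = 0.000386). The mitochondrial carriers YMC2 and YMC1 changed by 2.28 ± 0.15 (adjusted p = 1.91e-06) and -0.47 ± 0.13 (adjusted p = 0.0116), the second a call lost without isopropanol replicate 2 (adjusted p = 0.0686). The others were GSC2 and FKS1 (0.34 and -0.78, glucan synthases), PMA2 and PMA1, OYE2 and OYE3 (0.47 and -0.53, old yellow enzymes), PHO87 and PHO90 (0.41 and -0.42, phosphate transporters), and PYC1 and PYC2 (0.20 and -0.44, pyruvate carboxylases). The calls of GSC2, PMA1, OYE3, PHO90, YMC1 and PYC1 were lost with the 3′ minus 5′ covariate, that of PHO90 without isopropanol replicate 2 and that of PYC1 without any 1 of the 4 arrays.

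**Figure D4:**
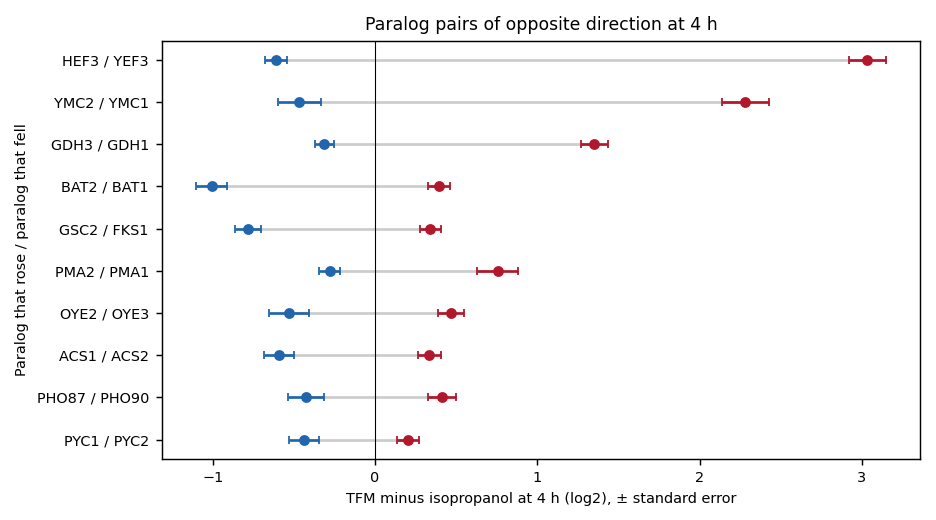
Change at 4 h (TFM minus isopropanol, log2, x axis) of the 10 paralog pairs in which 1 gene rose (red) and the other fell (blue), with limma standard errors as bars and 2 arrays in each group. HEF3 and YEF3 lie furthest apart, at 3.03 and -0.61.

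Some bright genes lay close to 0. Of the 100 brightest with isopropanol the 5 closest to 0 were SDH3 (14.49 and 14.60 with TFM, against 14.54 and 14.55 with isopropanol), a membrane anchor of succinate dehydrogenase, PET9, ATP3, a subunit of ATP synthase, AGX1, which makes glycine from glyoxylate, and OM14, a protein of the mitochondrial outer membrane. Their changes lay within 0.02 of 0, with standard errors of 0.0575 to 0.0633. In each the arrays of the groups overlapped.

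Most of the 4 h response was not called earlier. TFM changes were called in 67 genes at 1 h (1.23%) and 770 at 2 h (14.1%), and the median size of a change was 0.11 log2 units at 1 h, 0.18 at 2 h and 0.39 at 4 h. Isopropanol at 2 h had 1 array, taken to vary like the other groups. Of the genes called at 4 h, 1341 that rose and 1557 that fell were called at neither earlier time. The effect itself differed between 4 h and 1 h in 2684 genes (49.3%, 1247 higher and 1437 lower at 4 h), or in 1623 with the 3′ minus 5′ covariate, and between 4 h and 2 h in 1912 (35.1%, 810 higher and 1102 lower). STR3 changed by 0.59 at 1 h, 0.50 at 2 h and 3.57 at 4 h, and MEP2 by -0.52, 0.06 and 2.51. MIG2 and HXT3 changed at each time in turn by 1.22, 2.99 and 4.45, and by 0.88, 2.71 and 3.82. Early values are given whether or not they were called. In limma STR3 was called at neither 1 h nor 2 h (adjusted p = 0.138 and 0.153), and MIG2 was not called at 1 h (adjusted p = 0.0957).

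Most genes called earlier kept their direction. Of the 770 called at 2 h, 578 were called the same way at 4 h and 59 the opposite way. Of the 67 called at 1 h, 47 were called the same way and 5 the opposite way. In all, the direction turned in 60 genes that were called at 1 or 2 h and called the opposite way at 4 h. DLD3 changed by -0.61 at 1 h and -0.84 at 2 h, and by 1.25 at 4 h. RPA43, RIX1 and MTR4, which act in making ribosomal RNA and ribosomes, changed by 0.52, 0.56 and 0.45 at 2 h and by -1.31, -1.29 and -1.29 at 4 h. YAT2 changed by -0.64 at 2 h and 1.46 at 4 h. All 2 h changes share 1 isopropanol array, so a shift of that array would move them together. Without TFM, the median of the ribosome biogenesis list was 0.13 for isopropanol at 4 h minus time zero. Ribosome biogenesis as a list had 38 rises and 1 fall at 2 h, beside 8.3% and 5.84% of all genes, and its median was 0.07 at 1 h, 0.34 at 2 h and -0.38 at 4 h. The effect at 4 h was lower than at 2 h in 67 of its 106 genes and higher in 2, beside 20.2% and 14.9% of all genes. For cytosolic ribosomal proteins the medians were -0.04, -0.18 and -0.83 in the same order, with the effect lower at 4 h than at 2 h in 100 of 128 genes and higher in 0. In the list of nitrogen catabolite repressed genes the medians were -0.03, -0.06 and 0.60, and the effect was higher at 4 h than at 2 h in 22 of 34 genes.

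**Figure D5:**
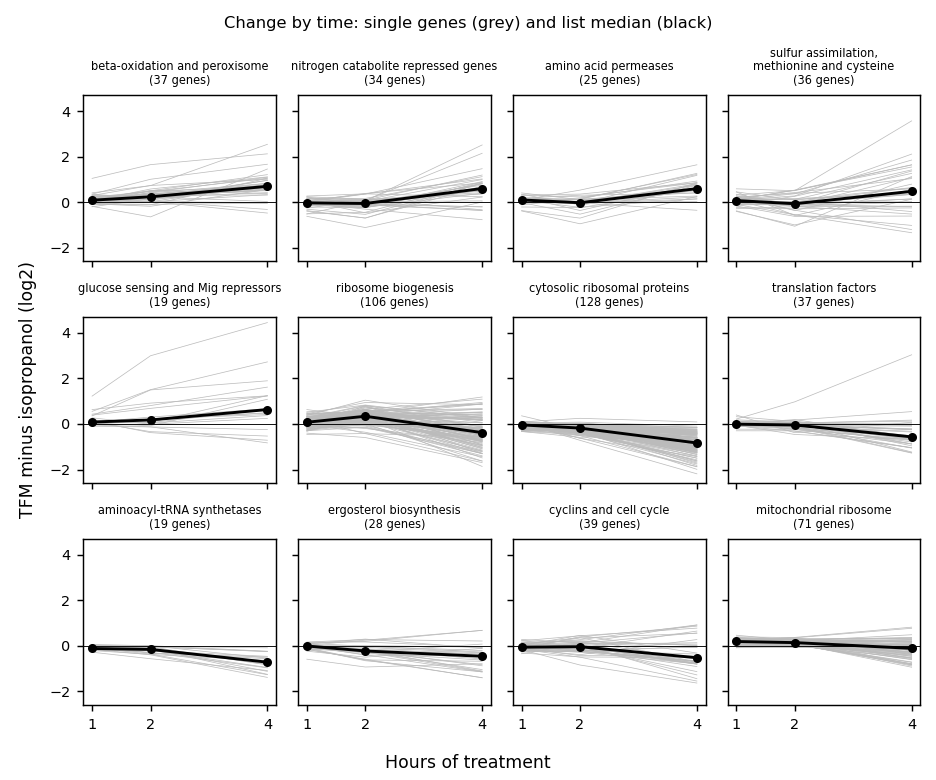
TFM minus isopropanol (log2, y axis) at 1, 2 and 4 h (x axis) for the genes of 12 lists, each gene a grey line and the list median a black line with points. The ribosome biogenesis median lies above 0 at 2 h and below 0 at 4 h, and the other medians lie furthest from 0 at 4 h except that of the mitochondrial ribosome.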

How the data were processed

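Total RNA from BY4741 cultures was labelled with biotin and hybridized to yeast expression arrays, per the labels. The deposited table holds log2 RMA values, which the authors background-corrected, normalized to a common distribution and summarized per probe set, per the submitters' processing notes, which name no version. Of 5900 probe sets 184 were controls, 5498 had 1 gene, 0 had several and 218 had none. Gene IDs were joined to the RefSeq gene table, which updated 12 symbols, and the 47 genes with several probe sets took the brightest, which left 5449 genes. Signal background was set at 5.94, the highest mean of 59 unspiked control probe sets.

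All 13 arrays entered a single limma fit (version 3.58.1, R 4.3.3) of 7 group means, with eBayes at its defaults, 6 residual degrees of freedom and 3.52 of the prior. The p-values, two-sided, were Benjamini-Hochberg adjusted across 5449 genes and called under 0.05. Every ± is the standard error of a log2 difference between 2 and 2 arrays, and precision is limited by how few arrays there are. The same fit was also run on simulated arrays with known changes and independent noise, a simpler case than these data. Figures used matplotlib 3.10.9 in Python 3.11.15.

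The comparison, the 53 gene lists and the settings to try were chosen with earlier results of these data known. The rule for named genes took the 12 largest rises and falls among called genes whose groups did not overlap, for each list up to 3 called members each way, for each difference between times the 5 largest each way, up to 5 genes that turned direction, paralog pairs of opposite direction, strain and mating-type genes, and the 5 bright genes closest to 0. Single genes outside the rule (RPS20, RPL30, RPS23A, RPS27A, RPL22B, DPS1, further genes of the glucose sensing, drug resistance and autophagy lists, GLN3, and CTS1, EGT2, SCW11, SUN4 and DSE2) and the smaller groups within lists were chosen after their values were seen. Lists are described by counts and medians, with no test of a list. Replicate numbers were not taken as pairs: deviations from the group means correlated at -0.0928 between the TFM and isopropanol arrays of 4 h and from -0.471 to 0.599 over the 15 pairs of groups, and the labels name no shared culture. Alternatives were leaving out each array, other normalizations, filters and variance models, other baselines, a replicate block and 2 array quality covariates.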

Additional observations from a re-analysis of the deposited data

Results flagged for a closer look

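The effect of TFM differed between time points by a test of the difference itself in 2684 genes for 4 h against 1 h and in 1912 genes for 4 h against 2 h, both in limma with the adjusted p threshold of 0.05. For 4 h minus 1 h the largest positive differences on the log2 scale were 3.53 for YOR338W, 3.23 for MIG2, 3.03 for MEP2, 2.98 for STR3 and 2.94 for HXT3. The largest negative ones were -2.25 for RPS0B, -2.24 for MF(ALPHA)1, whose TFM arrays at 4 h lay under the background level, -2.18 for URA7, -2.13 for RRP3 and -2.11 for PHO11. For 4 h minus 2 h they were 3.06 for STR3, 2.56 for YOR338W, 2.45 for MEP2, 2.26 for OPT1 and 2.18 for SUL1, a sulfate permease gene, and -2.40 for PHO11, -2.26 for YER187W, -2.20 for URA7, -2.11 for NOP13, a nucleolar protein gene, and -2.07 for YOL014W. The 2 h differences rest on 1 isopropanol array.

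Among the 218 probe sets that the annotation used here pairs with no gene, which no comparison above uses, 142 passed the same threshold at 4 h, 70 higher and 72 lower with TFM. Of all named genes 64.9% passed, 30.9% higher and 34.0% lower. These shares are close, and nothing particular to the unnamed probe sets is read from their counts.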

How the results depend on the processing

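The number of genes called at 4 h lay between 2448 and 3751 under 27 alternatives, beside 3539, and that of at least 2-fold calls between 444 and 704, beside 603. Leaving out 1 array at a time gave 3145 to 3602 genes at 4 h, 545 to 704 at least 2-fold, 2244 to 2771 for 4 h against 1 h and 1631 to 1918 for 4 h against 2 h. The lone isopropanol 2 h array could not be left out of the last. A replicate block gave 3465, 603, 2540 and 1687 in the same order and lost the call of 4 of the 352 genes followed, named in the text or by the rule. The balance of direction is not settled: cyclic loess gave 1825 higher and 1790 lower, and leaving out isopropanol replicate 2 gave 1605 and 1589. The 3′ minus 5′ covariate gave 2448 genes at 4 h (1155 higher and 1293 lower), 475 at least 2-fold (243 higher and 232 lower) and 1623 for 4 h against 1 h; 51 of these genes lost their call with it and 4 turned, and the cause was not tested. Signs turned with this covariate for DAK2 (-0.997, near background on all 4 arrays), GRE2 (-0.21), PRM3 (-0.16), PAU8 (-0.37) and the medians of the hexose transporters (-0.19) and of the COS and PAU families (-0.33, and -0.88 without the dimmest 25% of genes). FRE7 turned against time zero (0.19). The 4 arrays of 4 h alone gave 2991 genes.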
